A study of Mus musculus with 2 samples.

Results

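The genes described here handle iron in macrophages: the transporters that bring it into the cell, move it out of endosomes and phagosomes and export it, the ferritin that stores it, the enzymes that free it from heme, and the RNA-binding protein that senses it. They were chosen by name, as every probe set whose single platform gene symbol was Slc40a1, Slc11a1, Slc11a2, Tfrc, Fth1, Ftl1, Hmox1, Blvrb, Steap3 or Ireb2. Of these 10 genes, 9 had such probe sets, 21 in all, out of 18193 genes and 45101 probe sets. Ftl1, the ferritin light chain, had none of its own, because the 3 probe sets listed for it are also listed for other genes. RNA came from RAW264.7 cells, a mouse macrophage-like line, that carried a stably transfected murine liver X receptor α (LXRα, gene Nr1h3). After 24 h with the solvent DMSO or with the LXR agonist GW3965 at 1 µM plus the retinoid X receptor (RXR) agonist LG268 at 100 nM, each condition was hybridised to 1 Affymetrix mouse array. The introduced receptor was present in both conditions and the agonists were given together, so cells without it, and either agonist alone, are not measured here. With 1 array per condition no test could be made, and each fold change compares these arrays and has no replicate check.

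Macrophages recycle most of the iron that the body uses. They engulf aged red cells, break heme down with heme oxygenase, keep the released iron in ferritin and pass it back to the plasma through ferroportin. Iron also enters on transferrin through the transferrin receptor, is reduced in the endosome and crosses its membrane through a divalent metal transporter. Iron regulatory proteins bind hairpins in the mRNAs of ferritin, ferroportin and the transferrin receptor, so part of this control acts on translation and mRNA decay, and translation is not read by an expression array.

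The arrays were evenly scaled, with a 2% trimmed mean signal of 2500 and medians of 282.5 for DMSO and 272.1 for the ligands. Signals below a floor of 276.4, the median of all probe sets other than controls, were set to it, and a gene counted as measured if its brighter signal exceeded it. The probe set with the highest mean log2 signal stands for a gene, and ratios are the ligand signal over the DMSO signal. The treatment check Abca1, the cholesterol exporter, was 27.2-fold higher with the ligands (2989 and 81159), and Abcg1 was 3.75-fold higher. The receptor Nr1h3 itself was 1.77-fold higher, and whether its probe set also detects the introduced copy was not examined. Of 11 macrophage markers with a probe set, 10 were measured, including Csf1r, Cd68 and Lyz2, Marco was below the floor, and Mpeg1 was the only 1 at least 2-fold apart, at 1.02 on the log2 scale. Of 7 erythroid markers, which matter here because red cell precursors carry most heme genes, Klf1, Epor and Rhd were measured, and Hba-a1, Gata1, Alas2 and Slc4a1 were below the floor on both arrays. The summed erythroid signal was 2490 with DMSO and 2209 with the ligands. Hepatocyte, lymphoid, granulocyte and fibroblast lists had 2 of 6, 1 of 6, 4 of 7 and 1 of 7 members measured, each of them under the floor on 1 of the arrays, so that their ratios are only bounds.

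The only error that these arrays give is the disagreement between probe sets of the same gene. Among genes with a pair of probe sets that both exceeded the floor in each condition, 4866 in number, this gave an SD of 0.28 for the log2 ratio of a probe set. It depended on signal, with 0.40 where the weaker probe set was under 1000, 0.26 between 1000 and 5000, and 0.17 above 5000. This SD holds measurement error within the arrays and none of the variation between cultures.

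Among the iron handling genes, 3 were at least 1.5-fold higher on the ligand array and 6 lay within 1.5-fold by their brightest probe sets. Slc11a1, Slc40a1 and Hmox1 were at least 1.5-fold higher, against 6.36% of the 11077 measured genes. Their products are known for moving iron out of phagosomes, out of the cell and out of heme. Slc11a2 and Steap3, whose products act in moving iron out of the endosome, were within 1.5-fold by their brightest probe sets. No transport or enzyme activity was measured here. Slc11a1 alone was at least 2-fold higher, where 1.67% of measured genes were. No member was at least 1.5-fold lower, where 4.77% of measured genes were, or at least 2-fold lower, where 0.776% were. The other 6 members lay within 1.5-fold of DMSO, as did 88.9% of measured genes. In all, 7 members had a ratio above 1, against 46.2% of measured genes, and the median log2 ratio of the 9 was 0.17, against -0.03 for all measured genes. The members are few and were picked by name with earlier results of these data known. These counts therefore describe them and do not test the group.

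**Figure D1:**
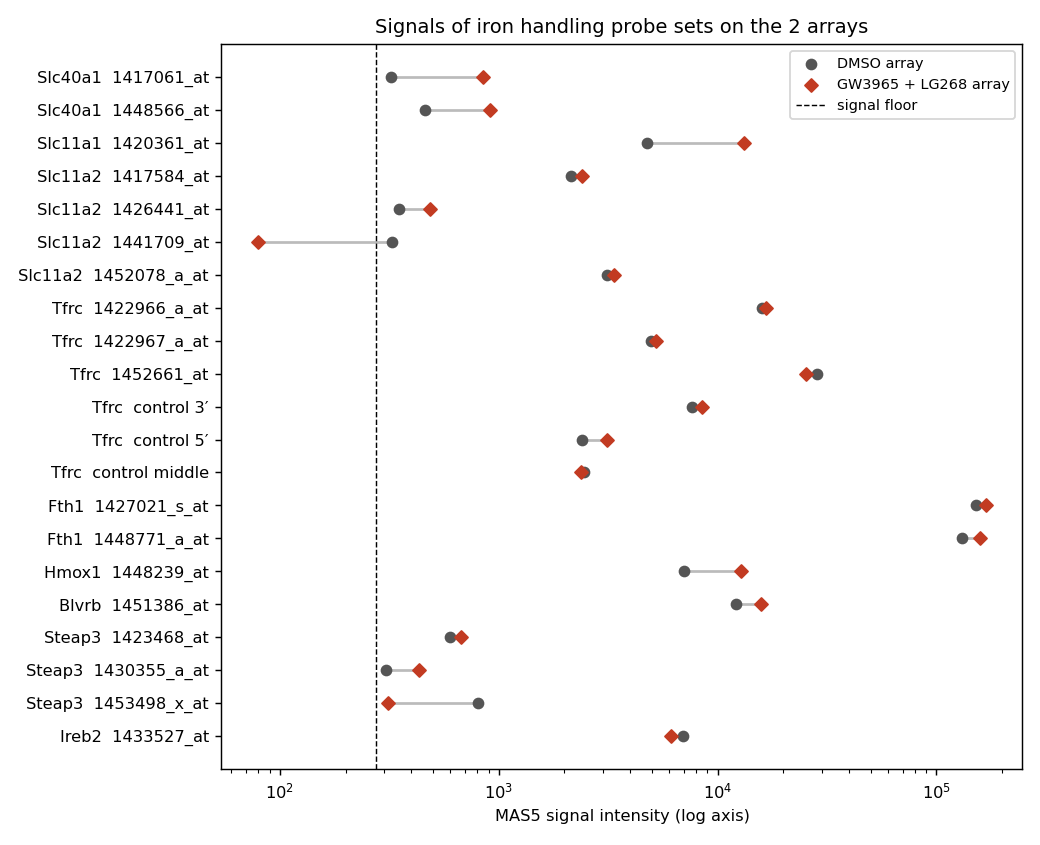
MAS5 signal on a log axis for every iron handling probe set, with the DMSO array as circles, the ligand array as diamonds and the signal floor of 276.4 as a dashed line. The pairs stand far apart for Slc11a1 (4781 and 13246), Hmox1 (7051 and 12833) and both Slc40a1 probe sets, and lie close together for Tfrc, Fth1 and Ireb2.

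Slc11a1 encodes NRAMP1, a proton-driven transporter that, where functional, removes iron and manganese from the phagosome and late endosome and limits the growth of engulfed microbes. The arrays read only its mRNA, and whether the protein works in these cells was not examined. Its single probe set, 1420361_at, read 4781 with DMSO and 13246 with the ligands. That is the largest difference among the members, 2.77-fold or 1.47 on the log2 scale, against a probe set SD of 0.17 at that signal. Only 0.623% of measured genes had a ratio as high, which placed it 69th of 11077.

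Sequence upstream of Slc11a1 was searched because of that difference, in the 250 bases before the RefSeq start (GRCm38.p6), with 6 motifs on both strands. Its window held the hexamer AGGTCA, which nuclear receptors such as LXR and RXR recognise, from 143 to 138 bases before the start. Just upstream of it lay GAGGAA, a core recognised by the myeloid factor PU.1, and closer to the start a match to TGANNNNGC, the core of the antioxidant response element bound by NRF2. The matches are in capitals in these stretches of the plus strand, at chr1:74375044-74375073 and chr1:74375141-74375170.
Slc11a1, AGGTCA and GAGGAA: tccaggaGAGGAAcgaAGGTCAaaactgtg
Slc11a1, antioxidant core: tgtgaaattgTGAGCATGCcctcagtgatg
Of 32851 promoter windows of the same length, 14.0% held AGGTCA, 23.3% held GAGGAA and 35.2% held TGANNNNGC, so each match is common. The consensus LXR response element repeats AGGTCA in the same direction after 4 further bases. An exact match to it occurred in 5 of the 32851 windows and in none of the 13 windows of 7 members (Ftl1 included). Exact matches are so rare that their absence from member windows says little, and inexact repeats were not searched. Among members, AGGTCA was otherwise found 4 times in 1 of the 4 windows of Steap3. The longer antioxidant element TGACNNNGC, a special case of the core, and the E-box CACGTG were in no member window, against 10.2% and 6.02% of all windows. A letter match in such a window is no evidence that a factor binds there, and more distant elements were not searched.

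Slc11a2 encodes DMT1, the paralog of NRAMP1 that carries reduced iron out of the transferrin endosome into the cytosol. Its brightest probe set, 1452078_a_at, read 3126 with DMSO and 3369 with the ligands, a log2 ratio of 0.11. The second, 1417584_at, read 2133 and 2394, and the third, 1426441_at, 352.2 and 484.3. These 3 were slightly higher with the ligands, by log2 ratios of 0.11 to 0.46, the largest of them at a signal near the floor. The fourth, 1441709_at, went the other way, from 326.2 to 79.5, which is below the floor and gives at least 1.18-fold lower. Which transcripts of Slc11a2 each probe set detects was not examined. The 2 NRAMP paralogs thus had unlike ratios on these arrays, 1.47 and 0.11 on the log2 scale, although the difference between them could not be tested.

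Slc40a1 encodes ferroportin, the known iron exporter of mammalian cells. Its probe set 1448566_at read 460.5 with DMSO and 918.4 with the ligands, and 1417061_at read 322.8 and 851.1. Both were thus higher with the ligands, 1.99-fold and 2.64-fold, or 1.00 and 1.40 on the log2 scale, against a probe set SD of 0.40 at these weak signals. The brighter probe set lay just under the 2-fold line, so whether Slc40a1 counts as 2-fold higher depended on the processing. It passed when ratios were centred on the median gene or averaged over its probe sets (log2 ratio 1.02 and 1.20). Its ratio ranked 187th of 11077, with 1.69% of measured genes as high. The DMSO signals were close to the floor, and with a floor at the 75th percentile of probe sets Slc40a1 was no longer measured.

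Hmox1 encodes heme oxygenase-1, the inducible enzyme that opens the heme ring to give iron, carbon monoxide and biliverdin. Its single probe set, 1448239_at, read 7051 with DMSO and 12833 with the ligands. That is 1.82-fold higher, 0.86 on the log2 scale against a probe set SD of 0.17 at that signal, and 2.51% of measured genes had a ratio as high. Its constitutive counterpart Hmox2, a heme oxygenase outside the members, read 17007 and 15275, a log2 ratio of -0.15.

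Blvrb encodes biliverdin reductase B, which reduces flavins and some biliverdin isomers downstream of heme oxygenase. Its probe set 1451386_at read 12107 with DMSO and 15733 with the ligands. The difference of 0.38 on the log2 scale, 1.30-fold, was above the probe set SD of 0.17 but was matched or exceeded by 12.8% of measured genes. Blvra, the biliverdin reductase that makes bilirubin, read 18435 and 22202, a log2 ratio of 0.27. Neither reductase was 1.5-fold apart. Blvrb is a known target of NRF2, and the 250 bases before its first RefSeq start (GRCm38.p6, plus strand, chr7:27447728-27447977) are shown with the only motif match found in them, the antioxidant core on the opposite strand, in capitals.
Blvrb: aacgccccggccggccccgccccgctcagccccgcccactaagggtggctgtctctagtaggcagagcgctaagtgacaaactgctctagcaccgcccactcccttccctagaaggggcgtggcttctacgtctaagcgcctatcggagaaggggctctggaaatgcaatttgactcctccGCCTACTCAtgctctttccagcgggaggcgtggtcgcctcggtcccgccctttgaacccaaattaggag
That core is present in 4 of the 13 member windows and in 35.2% of all windows, as given above.

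Fth1 encodes the ferritin heavy chain, which oxidises iron for storage inside the ferritin shell. Its probe set 1427021_s_at read 151757 with DMSO and 168488 with the ligands, and 1448771_a_at read 130510 and 157706. Both were slightly higher with the ligands, by 0.15 and 0.27 on the log2 scale, the first under and the second above the probe set SD of 0.17. A name ending in _s_at marks a probe set that can detect transcripts of several genes, and 1 ending in _a_at alternative transcripts of the same gene. Without such probe sets Fth1 had no value.

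**Figure D2:**
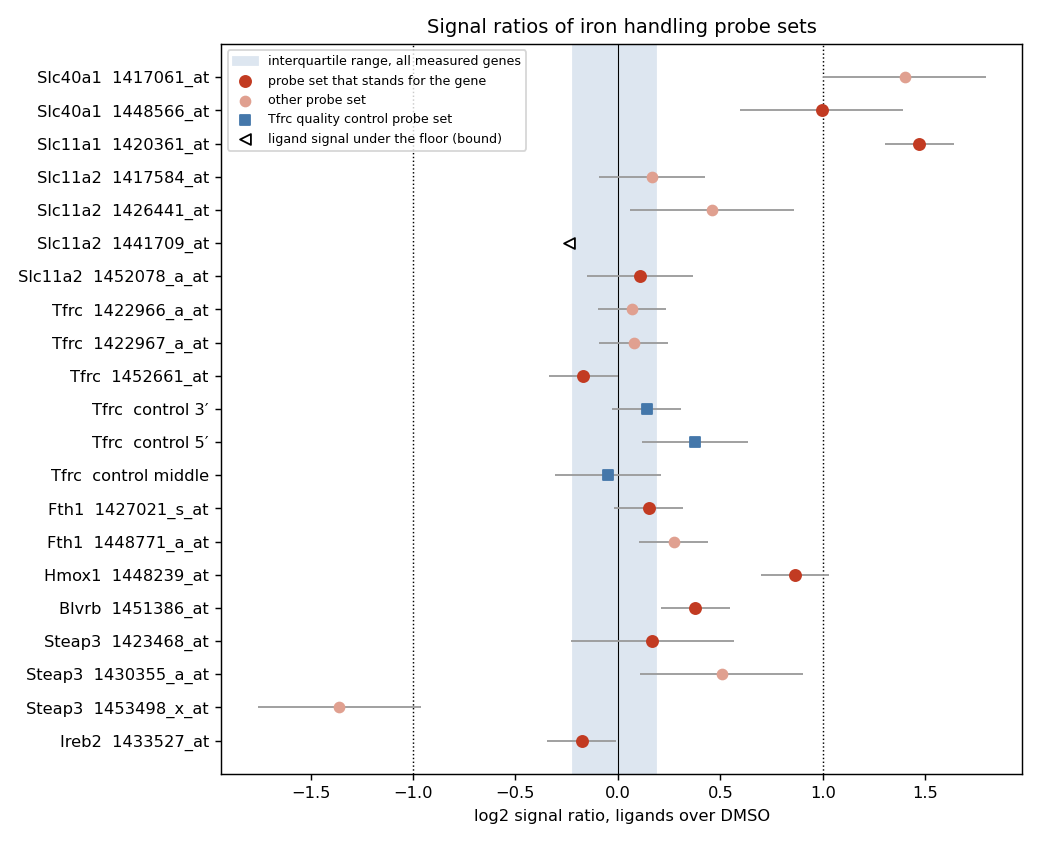
Log2 signal ratio of ligands over DMSO for every iron handling probe set, with bars of 1 probe set SD at that signal and shading for the interquartile range of all measured genes (-0.22 to 0.19). Both Slc40a1 probe sets and those of Slc11a1 and Hmox1 lie farthest to the right, from 0.86 to 1.47, the 3 Tfrc probe sets that are not controls lie within the shading, and the probe sets of Steap3 range from -1.36 to 0.51.

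Tfrc encodes the transferrin receptor, through which cells take up iron bound to transferrin. Its brightest probe set, 1452661_at, read 28524 with DMSO and 25361 with the ligands, the second, 1422966_a_at, 15907 and 16679, and the third, 1422967_a_at, 4983 and 5255. The first was lower by a log2 ratio of -0.17 and the others higher by 0.07 and 0.08, all within or close to the probe set SD of 0.17. Tfrc is also a quality control of this array, with probe sets near the 3′ end, in the middle and near the 5′ end of its transcript. The 3′ control read 7685 with DMSO and 8468 with the ligands, the middle control 2460 and 2377, and the 5′ control 2416 and 3136. Their log2 ratios were 0.14, -0.05 and 0.38, so the 6 probe sets of this transcript spanned 0.55 on the log2 scale with no common direction. The 3′ to 5′ signal ratio was 3.18 with DMSO and 2.70 with the ligands, and the 3′ to middle ratio went the other way, from 3.12 to 3.56. The arrays thus showed no single shift along this transcript.

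Steap3 encodes the ferrireductase that reduces iron in the transferrin endosome before DMT1 carries it out. Its 3 probe sets disagreed. The 1 that stands for the gene, 1423468_at, read 598.5 with DMSO and 672.5 with the ligands, and 1430355_a_at read 305.4 and 433.8, log2 ratios of 0.17 and 0.51. The third, 1453498_x_at, read 804.4 and 313.5, 2.57-fold lower or -1.36 on the log2 scale. Names ending in _x_at mark probe sets that can bind unrelated transcripts. Averaged over the 3 probe sets the log2 ratio of Steap3 was -0.23, so these arrays give no direction for it. Among the 18 member probe sets that are not controls, this was counted as at least 2-fold lower, and 2 were at least 2-fold higher, with the Slc11a2 probe set under the floor known only by its bound, against 1.07% and 1.8% of all probe sets above the floor.

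Ireb2 encodes iron regulatory protein 2, which binds the mRNA hairpins of iron genes when iron is scarce. Its single probe set, 1433527_at, read 6961 with DMSO and 6161 with the ligands, a log2 ratio of -0.18, about the probe set SD of 0.17. Aco1, which encodes the other iron regulatory protein and doubles as cytosolic aconitase, read 5931 and 4604, a log2 ratio of -0.37. A second probe set of Aco1 was at 0.00, so only its brighter probe set stood lower. Fbxl5, the ubiquitin ligase subunit that removes Ireb2 protein when iron is plentiful, had a log2 ratio of -0.04.

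**Figure D3:**
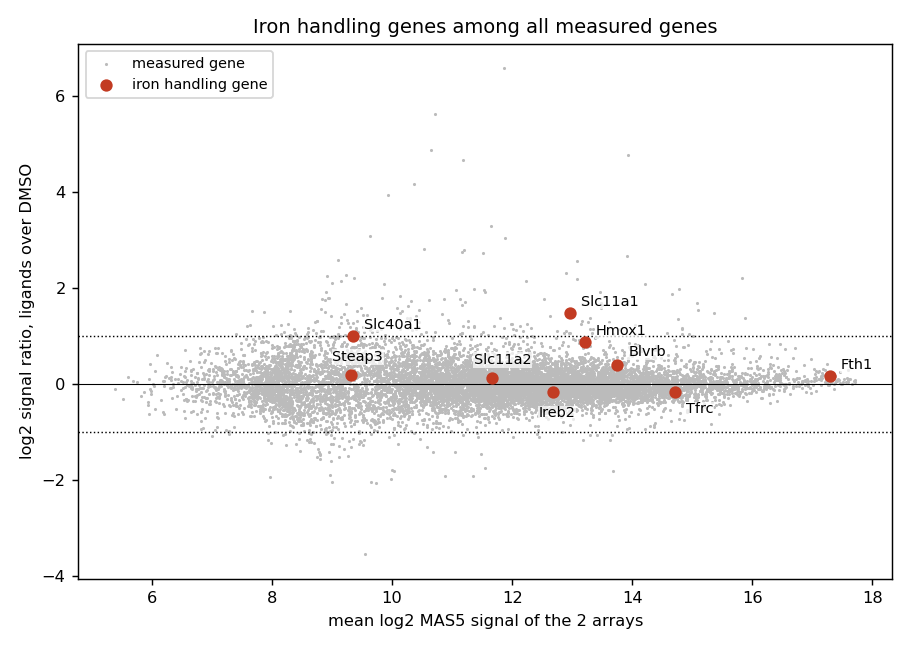
Log2 signal ratio against mean log2 signal for the 11077 measured genes in grey and the 9 iron handling genes in red, with dotted lines at 2-fold. Slc11a1 (1.47), Slc40a1 (1.00) and Hmox1 (0.86) sit near the upper edge of the cloud, and the other members lie within it.

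The rest of the iron and heme network was described with 11 lists of 128 further genes, of which 116 had a probe set and 91 were measured. At 2-fold, 1 of these was higher and 0 were lower, and at 1.5-fold 4 were higher and 2 lower. Those shares are near or below the background shares of 1.67% and 0.776% at 2-fold and 6.36% and 4.77% at 1.5-fold. The median log2 ratio of the 91 genes was -0.01, and 43 were positive and 48 negative.

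Other genes of iron and heme uptake were mostly below the floor, with 4 of 13 measured. Lrp1, an endocytic receptor that clears hemopexin-bound heme among many ligands, was 1.60-fold higher (14503 and 23199), and its second probe set was at 0.62 on the log2 scale. The zinc and iron importer Slc39a14 was lower, at -0.46 (4542 and 3294), and over its 3 probe sets at -0.46 to -0.15. In the list of endosomal and lysosomal iron and heme release, 6 genes were measured, and none was 1.5-fold apart by its brightest probe set. Mcoln1, a lysosomal cation channel that releases iron, was at 0.33 (4710 and 5907), and the heme and folate carrier Slc46a1 at 0.23 (559.7 and 654.3).

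Of the export genes and their regulators, 8 of 15 were measured, and the largest values rested on weak signals. Tmprss6, a membrane protease that lowers hepcidin production in hepatocytes, was under the floor with DMSO (185.8) and read 548.3 with the ligands, at least 1.98-fold higher. Hamp, which encodes hepcidin, the hormone that triggers ferroportin degradation, went from under the floor (223.6) to 394.1, at least 1.43-fold higher. These are single probe sets, and at such signals the probe set SD is 0.40. Cp, another gene of this list, went from under the floor (229.9) to 393.8, at least 1.43-fold higher. Its 4 probe sets with a signal above the floor had log2 ratios from 0.16 to 1.10. Flvcr1, a transporter that exports heme, was measured at stronger signals (4645 and 5863), with log2 ratios of 0.34 and 0.39 over its pair of probe sets.

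Iron storage and chaperone genes differed little, with 6 measured and all within 1.5-fold by their brightest probe sets. Ncoa4, the receptor that carries ferritin to the lysosome, was at 0.30 (10936 and 13455) and its other probe set at 0.05, and the iron chaperone Pcbp1 was at 0.19 (59849 and 68046). In heme breakdown 3 genes were measured, and after Blvra and Hmox2 the third was the heme-binding membrane protein Pgrmc1, at 0.33 (6864 and 8650).

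Heme synthesis had no common direction, with 11 genes measured, 5 positive and 6 negative. Abcb6, a porphyrin transporter, was 1.51-fold higher (3977 and 5987), and Cpox, coproporphyrinogen oxidase, was at -0.45 (1995 and 1456), with its second probe set at -0.52. Alas1, the rate-limiting enzyme outside red cells, was at 0.13. Of the 9 measured genes of the iron regulatory proteins and cytosolic iron-sulfur assembly, Aco1 was the lowest and Rbx1, a ubiquitin ligase subunit, the highest at 0.30 (699.7 and 860.4).

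Mitochondrial iron and iron-sulfur genes differed by small amounts by their brightest probe sets. Hspa9 was at -0.04 by its brightest probe set, but its 5 probe sets ranged from -1.02 to -0.02. Of 17 measured members, 14 had a ratio below 1, against 53.8% of all measured genes, and 11 lay below the median gene. Their median log2 ratio was -0.08, against -0.03 for all measured genes. Nfs1, the cysteine desulfurase that supplies sulfur for the clusters, was 1.53-fold lower (11852 and 7746), but its second probe set was at 0.09. Slc25a28, mitoferrin-2, which imports iron into mitochondria, was at -0.50 (6957 and 4913) from a single probe set. The 3 members above 1 were Iba57, Isca2 and Isca1, at 0.44, 0.19 and 0.01.

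Among other transcripts with a known iron-responsive element, only Cdc14a and Cdc42bpa were measured. The phosphatase Cdc14a was at 0.38 (783.8 and 1019), but its 3 probe sets ranged from -0.34 to 0.60. The kinase Cdc42bpa, at the floor with the ligands (314.1 and 275.3), was at least 1.14-fold lower.

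Transcription factors that act on iron and heme genes had 11 members measured, and the 10 above the floor on both arrays were within 1.5-fold by their brightest probe sets. The other, Bach2, was under the floor with DMSO (44.7) and read 318.9 with the ligands, which gives at least 1.15-fold higher. Nfe2l2, which encodes NRF2, was at -0.15 by its brightest probe set (20689 and 18586) and at 0.39 by the other. Bach1, the heme-sensing repressor of Hmox1, was at -0.11 (6810 and 6314). The largest were Arnt, the partner of the hypoxia-inducible factors, at 0.41 (2104 and 2800, with 5 probe sets from -0.20 to 0.60), and the small Maf protein Maff at 0.40 (574.9 and 756.7).

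Hmox1, Slc40a1, Fth1 and Blvrb are known targets of NRF2, and 14 further known targets were measured beside them. Of these, 10 had a ratio above 1, against 46.2% of measured genes, and the median log2 ratio was 0.09, against -0.03 for all measured genes. Osgin1, an oxidative stress-induced growth inhibitor, was 2.18-fold higher (611.8 and 1336), and the cystine transporter subunit Slc7a11 was 1.83-fold lower (1475 and 807.9), with another probe set at -0.09. The malic enzyme Me1 was at 0.57, with another probe set at 0.93. Glutathione reductase, Gsr, was at 0.56, but its other probe set was at 0.02. Gclm, a subunit of the enzyme that begins glutathione synthesis, was at 0.09, with another probe set at -0.92. Nqo1, a quinone reductase widely used as a marker of NRF2 activity, was below the floor on both arrays.

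**Figure D4:**
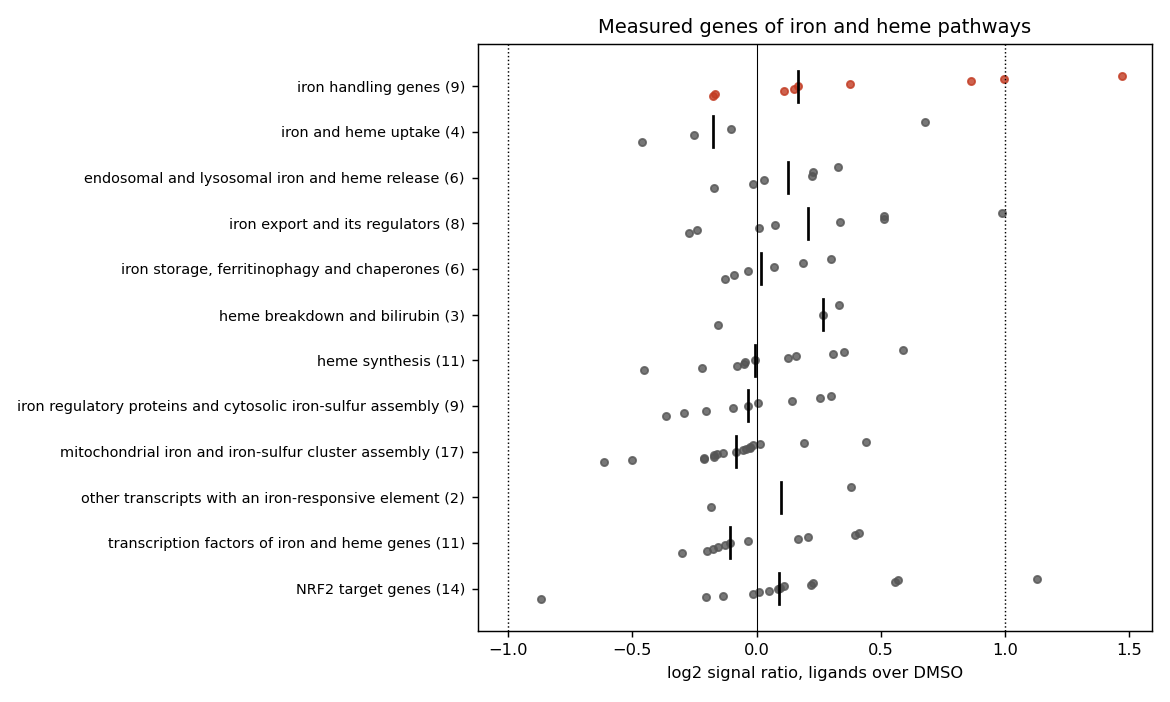
Log2 signal ratio of ligands over DMSO for each measured gene, as points, by list, with a black bar at the median and the number of measured genes in parentheses. Iron handling genes, in red, reach 1.47. With the floor used here, the other lists stay within 1 on the log2 scale except for Osgin1 among NRF2 targets, at 1.13. Ratios with 1 signal under the floor are drawn at their bound, such as Tmprss6 at 0.99, and could be larger. With a floor at the 25th percentile, 8 genes of the other lists were at least 2-fold higher.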

How the data were processed

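The deposited values are signal intensities on a linear scale, 1 per probe set, and the submitters' processing notes name MAS5, without a version, as the tool that made them. MAS5 subtracts mismatch from perfect-match probes and brings every array to the same trimmed mean, so a shift shared by most genes would not show. The values were used without further normalization, with the floor, the representative probe set and the fold thresholds given above. The number of arrays limits the precision, and no p-value was computed. The platform annotation gave 1 gene symbol to 34958 probe sets, several to 932 and none to 9211, and 34754 symbols were updated by gene identifier to RefSeq of GRCm38.p6. Promoter windows are RefSeq sequences of that build, and Slc40a1, Slc11a2 and Hmox1 were not in the table used. The files name no build. The members and lists were chosen with earlier results of these data known. Genes outside the members were named if they had the 2 largest absolute ratios of a list or were at least 1.5-fold apart. Hmox2, Fbxl5, Cp, Flvcr1, Alas1, Hspa9, Iba57, Isca1, Isca2, Nfe2l2, Bach1, Bach2, Me1, Gsr, Gclm and Nqo1 were added after their values were seen. The procedure was run on simulated arrays with known changes of 3-fold or more. That run did not cover the smaller differences of the members or the variation between cultures. Alternatives were other floors, log2(signal + 32) without a floor, quantile normalization, centring, averaging probe sets, leaving out _s_at, _x_at and _a_at probe sets, genes above the floor on both arrays only, the Tfrc controls used like other probe sets, and thresholds of 1.5-fold and 3-fold. Python 3.11.15, numpy 2.4.6, pandas 2.3.3 and matplotlib 3.10.9 were used.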

Additional observations from a re-analysis of the deposited data

Results flagged for a closer look

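Signals were also present in 3 probe sets that were left out of the comparisons because the platform annotation lists Ftl1 in them together with other genes. The probe set 1418364_a_at, listed for Ftl1 and the copy Ftl1-ps2, read 79334 with DMSO and 130164 with the ligands, 1.64-fold higher. The probe set 1422302_s_at, listed for the same pair, read 68737 and 96303, 1.40-fold higher. The probe set 1422301_at, listed for Ftl1, Ftl1-ps2 and 3 microRNA genes, read 1460 and 2229, 1.53-fold higher. All 3 were higher on the ligand array, and none of these values can be assigned to a single gene.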

How the results depend on the processing

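The median log2 ratio of the member genes stayed positive, from 0.15 to 0.27, over the main setting and 8 alternatives. The number of members at least 2-fold higher was 1, and became 2 with centring on the median ratio or with averaging over probe sets, 3 at a threshold of 1.5-fold and 0 at 3-fold, and no alternative gave a member at least 2-fold lower. Of the single members, only Steap3 moved by more than 0.28, the probe set SD over all pairs, to -0.23 with averaging over probe sets, and the SD at its weak signal is 0.40. For the other lists, the single gene at least 2-fold higher became 8 with a floor at the 25th percentile, 8 with log2(signal + 32) and no floor, 0 with a floor at the 75th percentile, 2 with quantile normalization, 2 with centring, 4 at 1.5-fold and 0 at 3-fold. Genes of those lists at least 2-fold lower went from 0 to 4 without a floor and to 2 at 1.5-fold. Weak signals limit Slc40a1 and Steap3, which were not measured with the floor at the 75th percentile. No paired analysis was possible because each condition has 1 array.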
